A study of Mus musculus with 6 samples.

Results

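Protease inhibitors of 3 kinds were followed in 4T1 cells, a mouse mammary carcinoma line, grown in 3D collagen I gels: the metalloproteinase inhibitors Timp1, Timp2, Timp3 and Reck, the serpins Serpine2 and Serpinb5, and the Kunitz inhibitors Tfpi2, Spint1 and Spint2. The 9 genes were taken by symbol from a table of 31017 genes, and each had a row. In 3 ETV4 KO samples Cas9 and guides against Etv4, a transcription factor of the ETS family, had been nucleofected, and they were set against 3 control samples given Cas9 with control guides. Both groups were embedded in collagen I, at 1 of 2 concentrations that the labels do not tie to a sample, and freed from the gel with collagenase I before poly(A) RNA was sequenced. The 3 ETV4 KO libraries share the code c39 and the control libraries the code sgCTRL. The labels do not say whether c39 is a single clone, or whether replicates came from separate cultures, so the spread behind the p-values is that between these libraries and may be technical.

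Cells that invade collagen use metalloproteinases and serine proteases to cut matrix and to activate other proteins, and each class of protease is held in check by its own inhibitors. TIMPs are small secreted proteins that occupy the active site of matrix metalloproteinases, and Reck is a membrane-anchored glycoprotein that restrains several of them. Inhibitory serpins trap a serine protease through a reactive loop that the protease cuts, whereas Kunitz inhibitors block the active site with a compact domain. PEA3-type ETS factors, the subfamily of Etv4, bind DNA around a GGAA core and often act beside AP-1.

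The libraries held 24356286 to 29042569 counts in ETV4 KO and 22355015 to 26669985 in controls. Within groups, Pearson's r of log2 CPM (counts scaled to library size, with TMM factors that allow for composition) across genes was 0.998, and between groups 0.969 to 0.970. Etv4 itself averaged 89.8 ± 2.44 CPM in ETV4 KO and 133.9 ± 0.752 CPM in controls (SD, n = 3 each). The log2 ratio of ETV4 KO to control was -0.58, with an SE of 0.036 (edgeR quasi-likelihood adjusted p = 1.03e-14). The median log2 ratio of expressed genes in the 10 Mb bin of Etv4 was -0.46, and with it taken out Etv4 had -0.11 (adjusted p = 0.0074). Counts over the whole gene do not show what became of the protein. Epithelial markers (Epcam, Krt8, Krt18, Krt19, Cdh1, Cldn4) summed to 3580 to 3725 CPM in ETV4 KO and 4976 to 5102 CPM in controls, with 2 of 6 called higher and 4 lower. The shares over all genes tested were 35% called higher and 36% lower. Fibroblast markers summed to 13.5 to 15.3 CPM in ETV4 KO and 12.9 to 14.1 CPM in controls, with Lum at 0 counts. Most of this was Pdgfra, with means of 13.3 CPM in ETV4 KO and 10.7 CPM in controls. Pdgfra was called higher and Postn lower, and the other fibroblast markers were not tested. Leukocyte markers summed to 9.24 to 11.3 CPM in ETV4 KO and 10.0 to 10.6 CPM in controls, with Adgre1, Cd3e and Lyz2 at 0. Most of this was Cd68, which was not called, with means of 9.84 CPM in ETV4 KO and 9.55 CPM in controls. Endothelial markers stayed under 0.88 CPM in every library, and platelet markers summed to 2.46 to 3.00 CPM in ETV4 KO and 1.83 to 2.36 CPM in controls. In bulk RNA, fewer cells of a type and less RNA per cell cannot be told apart.

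The promoter windows of 4 members are shown because these genes span the responses described next. Timp1 and Timp2 were higher in ETV4 KO, Serpinb5 was lower, and Spint1 was not called. Each window runs from 250 bases before to 50 bases after the gene's RefSeq start site in GRCm38.p6, 5′ to 3′ on the gene's strand. Capitals mark the PEA3-type letters AGGAAG, the longer ETS letters CCGGAAGT, the AP-1 letters TGANTCA and their variant TGAGTAA, on either strand.
Timp1 (chrX:20869916-20870215, plus strand): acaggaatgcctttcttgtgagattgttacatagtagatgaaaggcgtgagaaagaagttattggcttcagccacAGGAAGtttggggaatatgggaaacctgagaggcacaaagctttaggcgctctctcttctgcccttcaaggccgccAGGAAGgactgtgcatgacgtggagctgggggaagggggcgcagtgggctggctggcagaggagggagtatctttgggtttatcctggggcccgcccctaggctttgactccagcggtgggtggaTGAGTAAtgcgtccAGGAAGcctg
Timp2 (chr11:118355362-118355661, minus strand): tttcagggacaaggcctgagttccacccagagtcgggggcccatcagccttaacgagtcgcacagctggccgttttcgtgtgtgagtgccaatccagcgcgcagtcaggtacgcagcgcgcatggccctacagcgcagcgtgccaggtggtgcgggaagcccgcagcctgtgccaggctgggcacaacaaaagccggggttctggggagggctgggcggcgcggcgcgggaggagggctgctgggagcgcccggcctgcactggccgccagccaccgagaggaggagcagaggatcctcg
Serpinb5 (chr1:106860925-106861224, plus strand): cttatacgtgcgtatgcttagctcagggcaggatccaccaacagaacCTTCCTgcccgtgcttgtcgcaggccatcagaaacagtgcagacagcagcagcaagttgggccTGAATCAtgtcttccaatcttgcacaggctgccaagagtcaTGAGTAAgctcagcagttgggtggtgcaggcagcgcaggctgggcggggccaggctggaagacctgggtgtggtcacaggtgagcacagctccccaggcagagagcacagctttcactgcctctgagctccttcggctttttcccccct
Spint1 (chr2:119237110-119237409, plus strand): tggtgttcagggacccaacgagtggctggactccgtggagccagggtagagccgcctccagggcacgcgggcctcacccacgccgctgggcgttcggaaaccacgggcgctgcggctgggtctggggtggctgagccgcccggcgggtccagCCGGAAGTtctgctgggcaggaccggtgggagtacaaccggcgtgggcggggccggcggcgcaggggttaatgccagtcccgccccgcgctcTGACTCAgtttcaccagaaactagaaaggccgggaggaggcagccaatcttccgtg
The Timp1 window held AGGAAG 3 times, with first bases at -175, -99 and 41 from the start site, and TGAGTAA at 27, just before the last of them. Timp2 held none of the 4 motifs. The GGAA core alone was not searched for or marked, and it occurs in the Timp2 window. Serpinb5 held AGGAAG on the reverse strand at -203, an AP-1 match at -140 and TGAGTAA at -99. Spint1 held CCGGAAGT at -98 and an AP-1 match at -6. Among 32851 RefSeq windows of 300 bases, 35.4% held AGGAAG, 3.89% CCGGAAGT, 7.81% TGANTCA and 2.68% TGAGTAA, and 3.58% held AGGAAG together with either AP-1 form. No matches of these 4 motifs overlapped. The GC box letters GGGCGG, searched on both strands as well and not in capitals, were in at least 1 window of each of the 9 members and in 35.7% of all windows. The windows of all 9 members were found: Timp3 and Serpine2 held AGGAAG once each, Reck and Spint2 held none of the 4 motifs, and of the windows of Tfpi2, which has several start sites, 1 held an AP-1 match. A match describes letters only and is not a bound site.

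In ETV4 KO cells, the secreted metalloproteinase inhibitors Timp1 and Timp2 were higher, maspin (Serpinb5) was about 3.54-fold lower, and Spint2 was slightly lower. Spint1 and Reck did not pass the test. Serpine2 had few counts, with fewer in ETV4 KO, and Timp3 and Tfpi2 were at or near 0 counts. Of the 6 members that passed the filter on low counts, 2 were called higher and 2 lower. Calls at an edgeR adjusted p under 0.05 were made for 71.1% of the 12076 genes tested (35% higher and 36% lower), so 4 calls among 6 is near the background. Among those 6, the groups did not overlap for 4, against 72.7% of all genes tested. Of the 6, 1 (Serpinb5) was called and at least 2-fold different, against 9.89% of all genes.

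**Figure D1:**
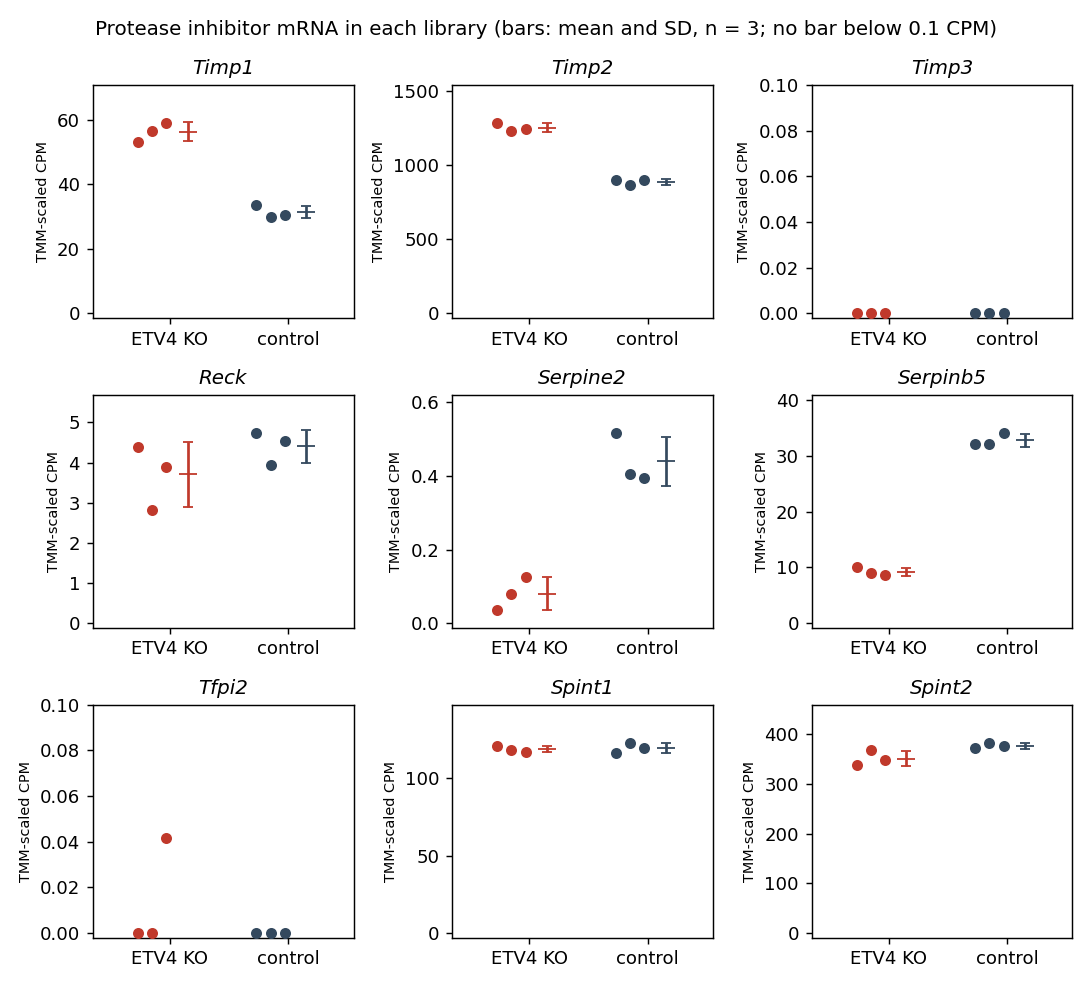
TMM-scaled CPM of each of the 9 inhibitors in every library, ETV4 KO left and control right, on linear axes from 0; points are libraries and bars the mean and SD. Timp1 and Timp2 sit higher and Serpinb5 lower in ETV4 KO without overlap, while Spint1 and Reck overlap.

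Timp1 encodes a secreted inhibitor of most soluble metalloproteinases that also binds the precursor of MMP9. It had 53.3, 56.7 and 59.1 CPM in ETV4 KO, against 33.5, 30.0 and 30.6 CPM in controls. The lowest ETV4 KO value was above the highest control value. The means were 56.3 ± 2.91 CPM in ETV4 KO and 31.4 ± 1.90 CPM in controls (SD, n = 3 each). The log2 ratio of ETV4 KO to control was 0.84, with an SE of 0.0525 (edgeR adjusted p = 9.3e-15), or 1.80-fold. The gene lies on chromosome X (20870166 to 20874735 in mm10) inside the opposite-strand gene Syn1, with which it shares 0 bases of exon. The change was larger in absolute log2 size than that of 87.1% of all genes tested, and it also passed a test against a fold change of 1.5 (adjusted p = 3.09e-05), as 13.9% of all genes did.

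Timp2, which inhibits metalloproteinases and, bound to the membrane protease MMP14, also helps to activate the MMP2 precursor, was the most abundant of the 9 transcripts. It had 1285, 1229 and 1245 CPM in ETV4 KO, against 898.2, 866.2 and 901.2 CPM in controls, again with no overlap. The means were 1253 ± 29.1 CPM in ETV4 KO and 888.6 ± 19.4 CPM in controls (SD, n = 3 each). The log2 ratio of ETV4 KO to control was 0.50, with an SE of 0.0306 (edgeR adjusted p = 8.21e-15), or 1.41-fold. This rise did not pass the test against a fold change of 1.5 (adjusted p = 1).

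The rise of Timp2 ran against its surroundings. Timp2 lies on chromosome 11 (118301069 to 118355740 in mm10), and over the 764 expressed genes of that chromosome the median log2 ratio was -0.38. Over all genes tested, 36% were called lower and 35% higher. Of 24 tested genes within 1 Mb, 21 were called lower, 0 higher and 3 were not called. Of those 3, Cep295nl lies inside Timp2 on the same strand, sharing 0 bases of exon, and stood at 0.36 on the log2 scale (SE 0.171, edgeR adjusted p = 0.0637). In the 10 Mb bin of Timp2, 82 other expressed genes had a median of -0.49, and with that median taken out the log2 fold change of Timp2 was 0.99 (adjusted p = 4.76e-22), close to the 0.95 of Timp1 under the same step. The p of this step treats the local median as exact and ignores how far single genes scatter about it. For Timp1 the 11 tested neighbours within 1 Mb had a median of -0.11, with 2 called higher and 6 lower. The protein-coding neighbours Usp11 and Cdk16 marked the ends of that range at -0.79 and 0.33, both nearer to 0 than the 0.84 of Timp1.

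**Figure D2:**
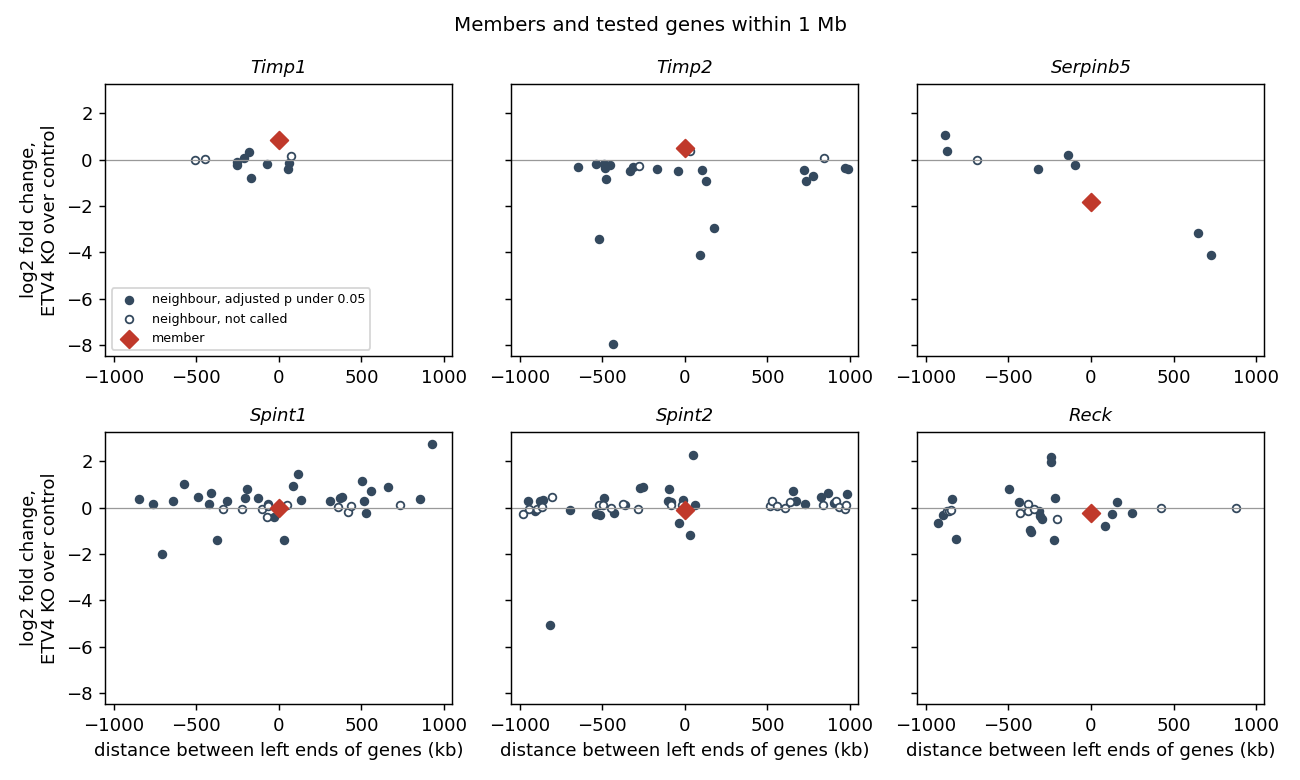
Log2 fold change of 6 members (diamonds) and of tested genes within 1 Mb (circles, filled where called) against the distance between the genes' left ends in kb. Timp2 lies above 0 among neighbours of which 21 of 24 were called lower, against 36% of all genes tested. Serpinb5 shares its sign with the serpins Serpinb2 and Serpinb8, which passed the filter on low counts only through their control counts.

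Timp3, a TIMP that stays bound to the matrix and also inhibits ADAM17, had 0 counts in all 6 libraries. It shares 1733 bases of exon with the opposite-strand gene Syn3, and the labels do not say how reads in shared exons were counted, so the 0 and its limit hold only for reads assigned to Timp3. A count of 0 allows up to 0.0388 CPM in ETV4 KO and 0.0411 CPM in controls, taking 3 counts over each group as the limit, for counting error only. Timp4, the remaining TIMP of the mouse, also had 0 counts throughout. Per kb of exon, Timp2 made up 84.6%, 83.2% and 82.8% of the summed TIMP level in ETV4 KO, against 85.9%, 86.8% and 87.0% in controls.

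Reck, which restrains MMP9, MMP14 and ADAM10 at the cell surface and joins ADGRA2 in recognising WNT7 ligands, was low. It had 4.40, 2.83 and 3.89 CPM in ETV4 KO, against 4.74, 3.95 and 4.53 CPM in controls. The groups overlapped, and ETV4 KO replicate 2 was the lowest of the 6. The log2 ratio was -0.23 with an SE of 0.147 (edgeR adjusted p = 0.157). Without ETV4 KO replicate 1 it was -0.39 and called lower (adjusted p = 0.0374), and without ETV4 KO replicate 2 it was -0.07 (adjusted p = 0.665). Its partners differed in direction: Wnt7a rose by 0.49 on the log2 scale and Adgra2 by 0.82, the second at 1.95 CPM in ETV4 KO and 1.10 CPM in controls, while Wnt7b had -0.56.

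Serpinb5 encodes maspin, a clade B serpin of epithelial cells, first described in mammary tissue as a tumour suppressor, that does not inhibit proteases by the usual serpin mechanism. It had 10.1, 8.97 and 8.57 CPM in ETV4 KO, against 32.1, 32.0 and 34.1 CPM in controls. All 3 ETV4 KO libraries were far below all 3 controls. The means were 9.20 ± 0.770 CPM in ETV4 KO and 32.7 ± 1.18 CPM in controls (SD, n = 3 each). The log2 ratio of ETV4 KO to control was -1.82, with an SE of 0.0689 (edgeR adjusted p = 5.01e-20). The change was larger in absolute log2 size than that of 96.2% of all genes tested, and it passed the test against a fold change of 1.5 (adjusted p = 1.49e-16). Of the epithelial markers given above, 4 of 6 were called lower as well, while Krt19 and Cldn4 were called higher. Over all genes tested, 36% were called lower. The part of these markers in the result was not tested.

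Serpinb5 lies on chromosome 1 (106861173 to 106883348 in mm10) at an end of a cluster of clade B serpins. Its bin held 6 other expressed genes, so the chromosome median of -0.03 was used in the local step, after which its log2 fold change was -1.80 (adjusted p = 9.32e-20). Against 35% and 36% of all genes tested, 3 of the 8 genes tested within 1 Mb were called higher and 4 lower. The falls furthest from 0 among them were those of Serpinb8 at 728.8 kb (-4.12, SE 0.223) and of Serpinb2, a urokinase inhibitor, at 650.2 kb (-3.17, SE 0.303). Serpinb8 had 7, 9 and 7 counts in ETV4 KO, against 113, 146 and 124 counts in controls. Serpinb2 had 4, 6 and 8 counts in ETV4 KO, against 52, 52 and 52 in controls. Both passed the filter on low counts only through their control counts, so their direction is no support for a change of the cluster. The genes Vps4b and Kdsr, at -97.1 and -140.7 kb from Serpinb5, had -0.21 and 0.19.

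By likeness of the centred log2 CPM profile over the 6 libraries (pseudocount 0.5, Euclidean distance), the tested genes nearest to Serpinb5 were Itga8, an integrin subunit, at a distance of 0.0831, Isoc2a at 0.108 and Lcp1, an actin-bundling protein of leukocytes and many carcinoma lines, at 0.130. Lcp1 had 81.3, 76.7 and 76.4 CPM in ETV4 KO, against 281.5, 270.7 and 276.6 CPM in controls. These genes lie on chromosomes 2, 7 and 14. With 6 libraries in 2 groups such a distance mostly reflects the size of the group difference, which the pseudocount shrinks at low levels. Isoc2a had 0.335 to 0.454 CPM in ETV4 KO and 2.44 to 2.90 CPM in controls. Its log2 ratio was -2.69, against -1.82 for Serpinb5. Itga8 had 2.38 to 2.76 CPM in ETV4 KO and 9.74 to 9.90 CPM in controls.

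Serpine2 encodes protease nexin-1, an inhibitor of thrombin and urokinase held at the cell surface by heparan sulfate. It had 1, 2 and 3 counts in ETV4 KO, against 12, 11 and 9 counts in controls. The groups did not overlap, but the gene did not pass the filter on low counts and was therefore not tested with the others. The ratio of the summed counts, scaled for library size, was 0.177, with a 95% Clopper-Pearson interval of 0.0605 to 0.429 that covers counting error only. Without the low-count filter its log2 ratio was -2.41 (SE 0.647, edgeR adjusted p = 0.000541), and with DESeq2 -2.48 (adjusted p = 0.0079). It also passed the filter in 5 fits that left out 1 library each, but only through its control counts, so those fits are no support for a difference.

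Spint1 and Spint2 encode HAI-1 and HAI-2, transmembrane Kunitz inhibitors of epithelial cells that block matriptase, prostasin and the activator of hepatocyte growth factor. Spint1 had 121.3, 118.1 and 117.4 CPM in ETV4 KO, against 116.7, 123.2 and 120.0 CPM in controls, and the groups overlapped. Its log2 ratio was -0.01 with an SE of 0.0358 (edgeR adjusted p = 0.758), nearer to 0 than that of most genes, since 2.25% of genes were nearer still. Spint2 had 337.2, 367.2 and 348.1 CPM in ETV4 KO, against 371.6, 382.8 and 375.8 CPM in controls. All 3 ETV4 KO libraries lay below the controls, by a small margin for replicate 2. The log2 ratio was -0.10 with an SE of 0.0334 (edgeR adjusted p = 0.00718), and the call was lost without ETV4 KO replicate 1 (-0.08, adjusted p = 0.0503).

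Both genes sit among neighbours that were more often higher than lower. Around Spint1, on chromosome 2, 24 of 39 tested genes within 1 Mb were called higher and 5 lower. Around Spint2, on chromosome 7, the counts were 21 and 8 of 51. Over all genes tested, 35% were called higher and 36% lower. With the bin medians of 0.21 and 0.11 taken out, Spint1 had -0.22 (adjusted p = 2.97e-06) and Spint2 -0.21 (adjusted p = 2.41e-06), and both were then called lower. Under that step 64.8% of all genes were called.

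**Figure D3:**
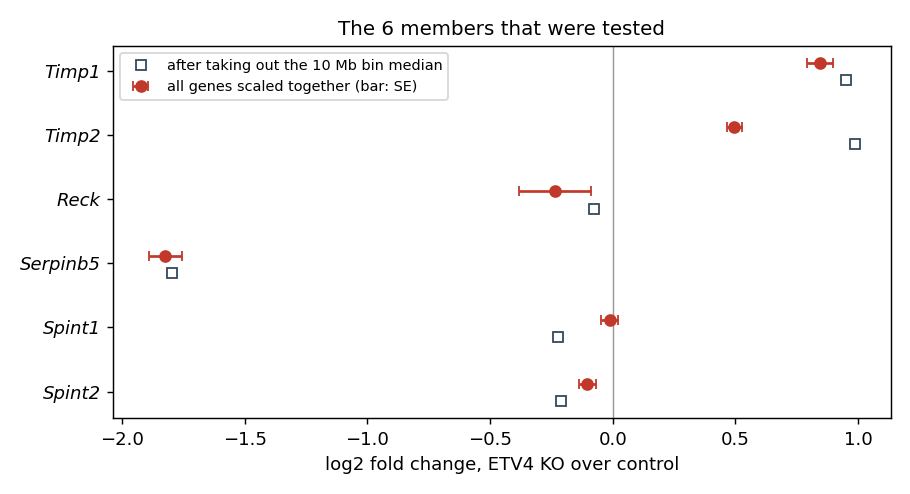
Log2 fold change of the 6 tested members, ETV4 KO over control, with SE (circles), and once the local median of the 10 Mb bin was taken out (squares). Timp2 goes to 0.99 and Spint1 and Spint2 to -0.22 and -0.21 under that step, while Serpinb5 stays near -1.8.

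Tfpi2, a secreted Kunitz inhibitor of plasmin and trypsin that binds matrix, had 1 count in all, in ETV4 KO replicate 3, and 0 counts in controls, and no fold is given. Nearly all Kunitz inhibitor counts among the 3 members were those of Spint1 and Spint2.

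Levels of different genes were compared as CPM per kb of exon, since longer transcripts give more reads. In both groups Timp2 came first, at 321.6 ± 7.46 in ETV4 KO and 228.1 ± 4.98 in controls (CPM per kb, SD, n = 3 each), followed by Spint2 at 77.0 ± 3.34 in ETV4 KO and 82.7 ± 1.25 in controls. The next places differed between the groups. In ETV4 KO, Timp1 (60.0 to 66.5 CPM per kb) lay above Spint1 (42.4 to 43.8), whereas in controls Timp1 (33.8 to 37.8) lay below Spint1 (42.2 to 44.5), with no overlap of the library ranges in either group. Serpinb5 came next, at 3.35 ± 0.280 in ETV4 KO and 11.9 ± 0.431 in controls, and then Reck, at 0.776 ± 0.168 in ETV4 KO and 0.922 ± 0.0857 in controls. Serpine2 averaged 0.00970 in ETV4 KO and 0.0531 in controls, and in ETV4 KO its libraries were not separated from those of Tfpi2.

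**Figure D4:**
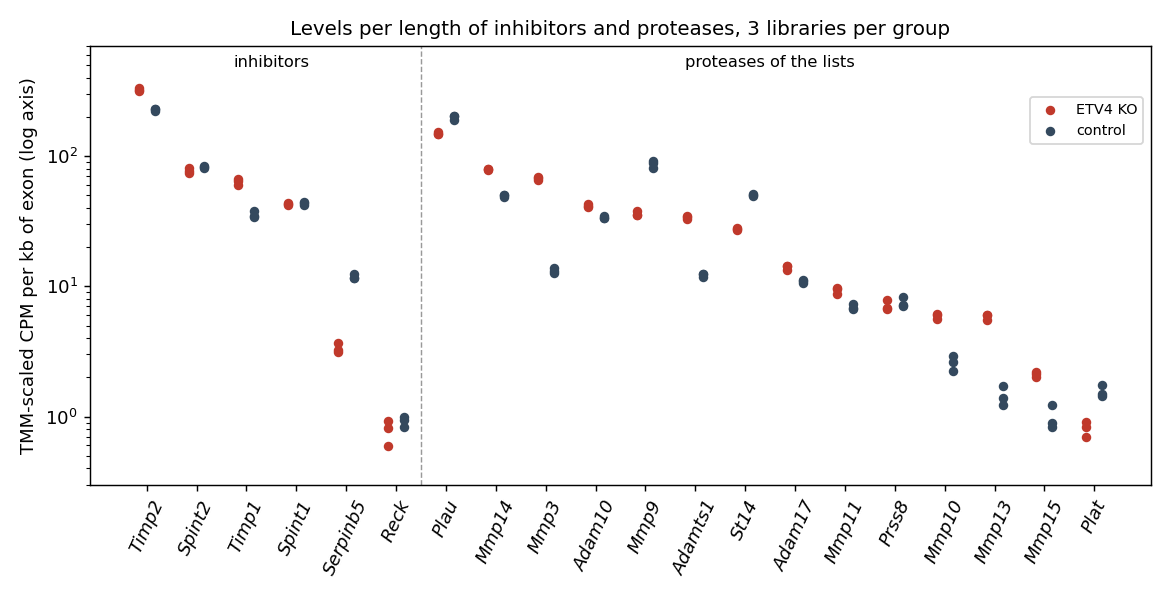
TMM-scaled CPM per kb of exon on a log axis for the 6 inhibitors above 0.1 CPM per kb (left of the dashed line) and for proteases of the lists, with ETV4 KO left of control and 1 point per library. Timp2 lies above every metalloproteinase shown, Mmp3 is higher and Mmp9 lower in ETV4 KO, and St14 is lower in ETV4 KO while Spint1 overlaps between groups.

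Of 21 listed metalloproteinases and ADAM proteases that TIMPs or RECK inhibit, 11 were tested, 9 of them called higher and 2 lower, against 35% and 36% of all genes tested; the other 10 had too few counts and no call. The 11 tested enzymes had a median log2 fold change of 0.67, against -0.0038 over all genes tested. Stromelysin (Mmp3) had 67.8 ± 1.81 CPM per kb in ETV4 KO and 13.2 ± 0.642 in controls, the membrane protease Mmp14 had 78.9 ± 0.588 in ETV4 KO and 49.6 ± 1.11 in controls, and the gelatinase Mmp9 had 36.1 ± 1.57 in ETV4 KO and 87.2 ± 5.17 in controls (SD, n = 3 each). Their log2 fold changes were 2.36, 0.67 and -1.27, with SEs of 0.0458, 0.0312 and 0.0398. Adamts1, an aggrecan-cleaving protease, rose by 1.47. Mmp2, whose precursor TIMP2 and MMP14 activate together, had 14, 4 and 5 counts in ETV4 KO, against 3, 4 and 1 counts in controls.

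Summed over Timp1 to Timp3, the inhibitor level was 389.9, 379.2 and 386.1 CPM per kb in ETV4 KO, against 268.3, 256.1 and 265.8 in controls. Summed over the 16 listed MMPs, the enzyme level was 208.8, 205.9 and 204.4 CPM per kb in ETV4 KO, against 164.3, 154.5 and 167.5 in controls. For both sums the lowest ETV4 KO value was above the highest control value. Their ratio was 1.87 ± 0.0235 in ETV4 KO and 1.63 ± 0.0365 in controls (SD, n = 3 each), with no test; it compares messages and not proteins, and it depends on the gene lengths used.

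Serine proteases and their partners went both ways. Of 25 listed genes of plasminogen activation, coagulation and epithelial serine proteolysis 15 were tested, 7 called higher and 6 lower (5 and 6 by library size alone, 5 and 8 with the bin medians taken out). Over all genes tested, 35% were called higher and 36% lower, and 64.8% in either direction with the bin medians taken out. Matriptase (St14), the main enzyme held by HAI-1 and HAI-2, had 26.9, 28.1 and 27.6 CPM per kb in ETV4 KO, against 50.1, 49.5 and 51.2 in controls. The log2 ratio of ETV4 KO to control was -0.87, with an SE of 0.0322 (edgeR adjusted p = 3.28e-20). The summed level of Spint1 and Spint2 per kb was 4.36 ± 0.0436 times that of St14 in ETV4 KO and 2.51 ± 0.0785 times in controls (SD, n = 3 each), with no test. This ratio too compares messages and not proteins, and it depends on the gene lengths used. Prostasin (Prss8) had a log2 fold change of -0.08 (edgeR adjusted p = 0.416), and hepsin (Hpn) had 0 counts.

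Urokinase (Plau), a target of Serpine2, had -0.40 (SE 0.0327, edgeR adjusted p = 4.26e-12), and the serine protease Prss22 had -1.53 (SE 0.0493). The kallikrein Klk10 rose by 3.42 (SE 0.0532), the initiator of coagulation F3 by 0.81 (SE 0.0907) and the thrombin receptor F2r by 0.31 (SE 0.0373). Among 11 partners in HGF signalling, Wnt signalling and endocytosis 7 were tested. Of these, 4 were called higher and 2 lower, against 35% and 36% of all genes tested. Lrp1, the endocytic receptor that clears complexes of serpins and of TIMPs with proteases, rose by 0.71 (SE 0.0379), the HGF receptor Met by 0.14 (SE 0.0373), and Epcam had -1.37 (SE 0.0329).

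Of 35 other protease inhibitors 14 were tested, 5 called higher and 8 lower, against 35% and 36% of all genes tested. The 14 had a median log2 fold change of -0.30, against -0.0038 over all genes tested. Among them, Serpinb2 and Serpinb8 passed the filter on low counts only through their control counts, and Serpinb9b only through its ETV4 KO counts. The cystatin Cst6, an inhibitor of cysteine proteases, rose by 1.52 (SE 0.0793) and Serpinb6a by 0.44 (SE 0.0329). Besides Serpinb8, the amyloid precursor relative Aplp2, which carries a Kunitz domain, had -0.32 (SE 0.0313) and the whey acidic protein family member Wfdc2 -0.32 (SE 0.0324). The edgeR adjusted p-values of the genes named from these lists in the last 3 paragraphs were at most 0.00157, apart from Prss8; Hpn was not tested.

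**Figure D5:**
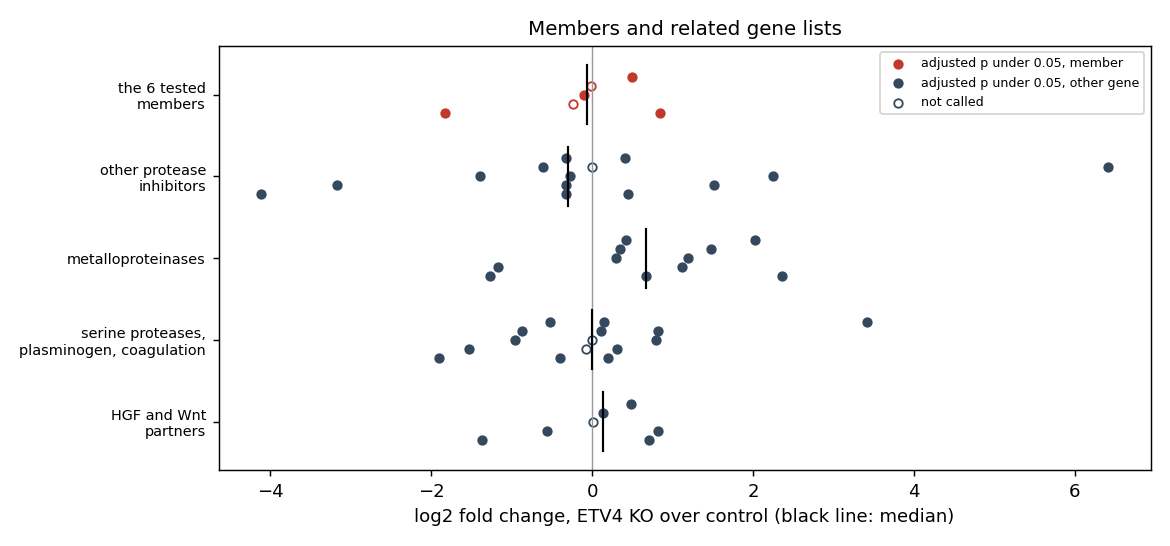
Log2 fold change of the 6 tested members and of the tested genes of 4 related lists, ETV4 KO over control, filled where the edgeR adjusted p was under 0.05; black lines are medians. The metalloproteinases lie mostly right of 0 with a median of 0.67, and the other lists spread to both sides.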

How the data were processed

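The file the authors deposited holds unnormalized counts by gene symbol for the 6 samples, a unit read off the whole-number values. Per the submitters' processing notes, the tools were featureCounts, STAR 2.7.9a, FastQC 0.11.9 and R 4.1.1, and the builds mm10 and hg38. Annotation, strand setting and treatment of multiply mapping reads: not given in the sources used here, so near-identical or overlapping genes are uncertain. All genes were fitted with edgeR 4.0.16 in R 4.3.3: filterByExpr (minimum count 10, minimum total 15), TMM, glmQLFit and glmQLFTest on the group without a replicate block, Benjamini-Hochberg over 12076 genes. The SE is the absolute log2 fold change over the square root of F. Alternatives used DESeq2 1.42.0 and limma 3.58.1 (voom). Positions and exon lengths come from GENCODE M21 (mm10), promoters from RefSeq (GRCm38.p6). The local step enters the median of expressed genes (log2 CPM above 3) in the 10 Mb bin, or of the chromosome below 10 genes, as an offset. On simulated data for this comparison with 12076 genes, edgeR recovered 58%, 92%, 94% and 100% of 50 genes each changed 1.2-, 1.5-, 2- and 4-fold. There 11876 genes were left unchanged and dispersions followed the trend, whereas 71.1% of genes were called in the data. The rates therefore need not hold for the data. Members and lists were chosen with earlier results of these data known. Named were the 9 members, up to 3 called genes per list and direction with the smallest adjusted p and a mean of at least 100 counts in the higher group, and the 3 genes most like Serpinb5; neighbours, further partners of a member (Adgra2, Prss8, Hpn, Mmp2, Timp4) and Serpinb2 were named after their values were seen. One gene that the rule names is not reported here.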

Additional observations from a re-analysis of the deposited data

How the results depend on the processing

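Of 17 alternatives per tested member, all 17 kept the direction and call of Timp1 (0.79 to 0.95) and Serpinb5 (-1.90 to -1.77). Against a fold change of 1.5 (glmTreat), 1 member was called higher and 1 lower, and the calls of Timp2 (0.50) and Spint2 (-0.10) were lost. Once local medians were removed, Spint1 was called lower (-0.22). Leaving out each library in turn gave -0.032 to 0.0059 for Spint1, which changed sign without control replicate 2, -0.14 to -0.076 for Spint2, -0.39 to -0.074 for Reck, 0.81 to 0.89 for Timp1 and 0.48 to 0.51 for Timp2; causes were not tested. The number of members called lower ran from 1 to 3, counting Serpine2 where it passed the filter, which it did only through its control counts or with no filter. The members behind that number changed as well. Once local medians were removed, the 3 were Serpinb5, Spint1 and Spint2. Without ETV4 KO replicate 1, Reck was called lower and Spint2 was not called. Same-numbered samples deviated together only weakly (correlations of 0.0710, 0.0705 and 0.0186), so the numbers are not taken to pair them. With a replicate block 2 members were still called higher and 2 lower, and Timp1 had 0.84. With the longest transcript in place of all exons, an alternative added after seeing the data, the ratio of TIMPs to MMPs was 1.44 in ETV4 KO and 1.28 in controls, and 7 of 9 members kept their place in the order over all libraries. Depth limits Serpine2, Tfpi2 and Timp3, whose counts are near 0, and Reck, at 70 to 126 counts per library.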

Other observations

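Other clade B serpins, outside the 9 members and looked at after the values of Serpinb5 were seen, are given here as values. Of 11 Serpinb genes on chromosome 1 in the table, 5 had a count in any library and 3 were tested, Serpinb5, Serpinb2 and Serpinb8, each called lower. Serpinb2 and Serpinb8 passed the filter on low counts only through their control counts, so the shared direction is no support for a change of the cluster. Over all genes tested, 35% were called higher and 36% lower. Of 15 on chromosome 13, 12 had a count and 3 were tested. Serpinb9b had 213 counts over the ETV4 KO libraries and 2 over the controls. It passed the filter on low counts only through its ETV4 KO counts, so its call is no support for a difference. Serpinb6a rose by 0.44 on the log2 scale, and Serpinb9, an inhibitor of granzyme B, had -0.61 (SE 0.106, edgeR adjusted p = 8.64e-06). The untested Serpinb9c had 20 counts in ETV4 KO and 1 in controls, and Serpinb9e had 18 in ETV4 KO and 0 in controls. Genes of the Serpinb9 group resemble each other closely, so reads may be split between them and their values are uncertain.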
